A study of Mus musculus with 16 samples.

Results

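The miRNAs described here are 7 names chosen for their links with stress, glia and inflammation: mmu-miR-21a-5p, mmu-miR-21a-3p, mmu-miR-22-5p, mmu-miR-22-3p, mmu-miR-146a-5p, mmu-miR-146b-5p and mmu-miR-155-5p, written below without the species prefix. They were picked by name out of 1978 mature mouse miRNA names, with earlier results of these data known. The low-count filter left 483 names to test and 6 of the 7 among them. MiR-21a-3p did not pass. Small RNA was sequenced from perinatal mouse forebrain neurons in primary culture, all transduced with lentivirus, with 4 libraries in each of 4 groups. One group received the empty vector (Empty_Vector), one a small hairpin RNA (shRNA), and the others that hairpin with 2 (shRNA_2bp) or 5 (shRNA_5bp) point mutations. The hairpin's sequence, its target and the promoter that drives it are not given in the sources used here. The labels do not say whether replicate libraries derive from different cultures or animals, so p-values measure the spread between these libraries, which may be technical.

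A miRNA is cut from a hairpin precursor as a short duplex, and usually 1 strand, or arm, stays bound to an Argonaute protein and guides it to mRNAs that pair with bases 2 to 8, the seed. MiR-21 is induced by stress and growth signals in many tissues and represses Pdcd4, and in brain it is known mostly from reactive glia. MiR-22 is made in many cell types, neurons included. MiR-146a and miR-146b are induced by NF-kB and repress Traf6 and Irak1 in a feedback loop, while miR-155, made from the Bic transcript of activated leukocytes and microglia, represses Socs1 and favours inflammation.

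All 7 names were matched to RefSeq sequences on GRCm38.p6, the build of the submitters. The mature strands of the tested members are shown because the seeds separate the set into targeting groups. Capitals mark the seed and each is written 5′ to 3′.
miR-21a-5p: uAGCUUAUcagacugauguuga
miR-22-3p: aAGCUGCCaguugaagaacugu
miR-22-5p: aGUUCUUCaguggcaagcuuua
miR-146a-5p: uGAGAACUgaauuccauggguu
miR-146b-5p: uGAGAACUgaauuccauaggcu
miR-155-5p: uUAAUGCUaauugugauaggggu

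The seed GAGAACU is shared by miR-146a-5p and miR-146b-5p, and no other pair of members shares one. Counting from 1 at the 5′ end of miR-146a-5p, its sequence differs from that of miR-146b-5p by G18A and U21C, and the other 20 bases are identical. Reads that end early or carry an error near those positions could be counted under either name, and how the authors assigned such reads is not given in the sources used here. MiR-21c, the only other name in the table with a member's seed (that of miR-21a-5p), had 22 reads over all 16 libraries and was not tested.

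The precursors of miR-22 and of miR-155 are shown because both arms of the former are described below and because the latter carries the largest change of the set. Capitals mark the mature arms.
Mir22: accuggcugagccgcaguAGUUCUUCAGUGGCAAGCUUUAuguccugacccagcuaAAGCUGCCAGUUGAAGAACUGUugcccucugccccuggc
Mir155: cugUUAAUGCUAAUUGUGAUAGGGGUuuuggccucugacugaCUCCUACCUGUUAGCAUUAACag

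Mir22 lies at chr11:75463716-75463810 on the plus strand, inside exon 2 of the non-coding host gene Mir22hg and of a transcript of Tlcd2. Mir155 lies at chr16:84714140-84714204 on the plus strand, inside exon 2 of the long non-coding host gene Mir155hg. Mir21a lies at chr11:86584067-86584158 on the minus strand, in the annotated UTR of exon 12 of Vmp1, a gene of autophagy. Mir146, the gene of miR-146a, lies at chr11:43374397-43374461 on the minus strand and overlaps no other GENCODE M21 gene. Mir146b lies at chr19:46342762-46342870 on the plus strand, within the gene Mfsd13a but in none of its exons. The members thus come from 5 loci, of which 3 are on chromosome 11.

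Library totals were 2.76 to 11.1 M reads with the empty vector and 5.3 to 8.06 M with shRNA, but 1.18 to 2.1 M with shRNA_2bp and 0.832 to 2.5 M with shRNA_5bp. Depth therefore differed along with the group. The 7 names together held 0.271 ± 0.00923% of reads with the empty vector (mean ± SD, n = 4), 0.34 ± 0.0153% with shRNA, 0.515 ± 0.0113% with shRNA_2bp and 0.388 ± 0.00927% with shRNA_5bp. These are shares of library totals. With totals alone as the scale, the median log2 fold change over the 483 miRNAs was 0.181, 0.195 and 0.302 for the hairpins in order. A list of 10 neuronal miRNAs, among them miR-128-3p, miR-124-3p and miR-9-5p, held 47.1 to 48.7% of the reads of the empty-vector libraries, 42.7 to 44.6% with shRNA, 36.7 to 38% with shRNA_2bp and 36.6 to 39.8% with shRNA_5bp. Most of these reads were miR-128-3p (11564687 of 14251632 with the empty vector), which fell by 0.37, 0.83 and 0.81 on the log2 scale in the order of the hairpins (edgeR, adjusted p = 4.84e-05, 4.83e-12 and 1.42e-11). With shRNA_2bp miR-9-5p rose by 0.42 (adjusted p = 5.31e-09) and miR-124-3p by 0.33 (adjusted p = 0.00021), so the names of the list did not move as one. Of 8 microglia and leukocyte names none was tested. Over all libraries miR-142a-3p and miR-223-3p of this list had 0 reads, as did both arms of miR-511. In the order empty vector, shRNA, shRNA_2bp and shRNA_5bp, miR-142a-5p had 2, 3, 5 and 0 reads. MiR-150-5p had 2, 0, 2 and 1 in that order. MiR-150-3p had 3 and miR-223-5p 1, all with the empty vector. The sum of the 8 names reached 0.46 counts per M reads (CPM) in any empty-vector library, 0.523 with shRNA, 3.4 with shRNA_2bp and 1.06 with shRNA_5bp. In bulk libraries such as these, fewer cells of a type and less RNA per cell cannot be told apart.

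Which of these miRNAs moved with a hairpin was asked first, in a single edgeR quasi-likelihood fit of all 16 libraries and 483 miRNAs, two-sided, with Benjamini-Hochberg adjustment over all 483. A miRNA is said to have risen or fallen when its adjusted p was below 0.05. Levels are CPM after scaling by the trimmed mean of M values, ± SD over 4 libraries, and differences are log2 fold changes ± SE. The 3 comparisons with the empty vector share its 4 libraries.

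**Figure D1:**
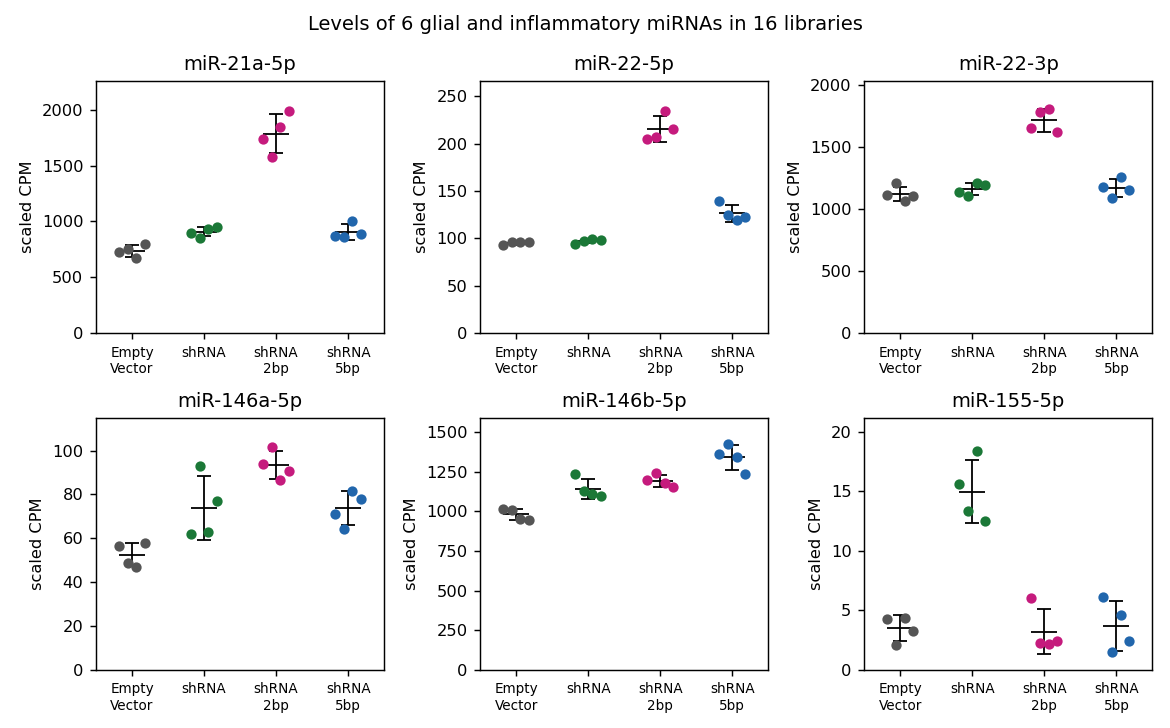
Scaled CPM (vertical axis, from 0) of the 6 tested miRNAs in each library of the 4 groups, with the mean (wide tick) and SD (bars, n = 4). MiR-155-5p is high with shRNA alone, at 12.48 to 18.4 CPM, and miR-21a-5p and both arms of miR-22 are highest with shRNA_2bp.

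MiR-155-5p, the most strongly inflammatory of the set, rose with the unmutated shRNA alone. Its raw counts were 19, 20, 11 and 34 in the empty-vector libraries and 122, 70, 105 and 80 with shRNA. They were 10, 5, 3 and 3 with shRNA_2bp and 6, 4, 4 and 4 with shRNA_5bp. Each shRNA library thus held more reads of it than any of the other 12, on the raw scale as well as in CPM. The level was 3.51 ± 1.07 CPM with the empty vector and 15 ± 2.65 CPM with shRNA, a rise of 2.19 ± 0.26 (95% interval 1.62 to 2.76, adjusted p = 1.35e-07). That was the largest absolute log2 fold change among the 483 miRNAs in this comparison, rank 1. With shRNA_2bp the level was 3.21 ± 1.86 CPM and the difference -0.01 (interval -0.93 to 0.91, adjusted p = 0.985). With shRNA_5bp it was 3.65 ± 2.09 CPM and -0.11 (interval -1.05 to 0.83, adjusted p = 0.839), so a change of up to about that size in either direction was not detectable at this depth.

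Tested directly, miR-155-5p was lower with shRNA_2bp than with shRNA by -2.20 ± 0.34 (adjusted p = 2.29e-06) and lower with shRNA_5bp than with shRNA by -2.30 ± 0.36 (adjusted p = 3.58e-06). Summed over the 4 libraries of a group, its unscaled CPM was 15 with shRNA (exact Poisson 95% interval 13.5 to 16.6). It was 2.83 (2.26 to 3.51) with the empty vector, 3.32 (2.06 to 5.08) with shRNA_2bp and 3.14 (1.86 to 4.96) with shRNA_5bp. These intervals cover counting error only. The rise with shRNA was 2.02 to 2.34 when any library was left out, and it could not be tested on libraries thinned to the depth of the shallowest. The opposite arm, miR-155-3p, had 4 reads in all, in 3 of the shRNA libraries and in no library of another group. The 8 microglia and leukocyte names had 3 of 25195996 reads with shRNA, all of miR-142a-5p. They had 8 of 29667850 with the empty vector, 2 of them of miR-142a-5p. Their summed level in a library, unscaled, reached 0.523 CPM with shRNA and 0.46 CPM with the empty vector, and their part in the rise was not tested.

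MiR-21a-5p, the stress-induced member, rose with all 3 hairpins and most with shRNA_2bp. Its levels were 723, 755, 673 and 798 CPM in the empty-vector libraries and 900, 853, 929 and 949 CPM with shRNA. They were 1741, 1577, 1849 and 1988 CPM with shRNA_2bp and 869, 862, 1006 and 886 CPM with shRNA_5bp. No library of any hairpin group overlapped the empty vector, and the shRNA_2bp libraries lay above all others. It rose by 0.30 ± 0.07 with shRNA (adjusted p = 0.00095), 1.28 ± 0.07 with shRNA_2bp (adjusted p = 1.5e-15) and 0.29 ± 0.07 with shRNA_5bp (adjusted p = 0.000733). The last was 0.06 (adjusted p = 0.696) with no filter on low counts and 0.17 (adjusted p = 0.0609) without empty-vector library 3. Between hairpins, shRNA_2bp exceeded shRNA by 0.98 ± 0.07 (adjusted p = 4.62e-13), and shRNA_5bp lay below shRNA_2bp by -0.98 ± 0.07 (adjusted p = 1.08e-12). ShRNA_5bp and shRNA differed by -0.01 (interval -0.16 to 0.15, adjusted p = 0.957). The difference was -0.19 (adjusted p = 0.0328) without shRNA library 2 and -0.21 (adjusted p = 0.021) with no filter on low counts. The median over all tested miRNAs moved too, from -0.002 to -0.16 and -0.28 in that order.

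The other arm, miR-21a-3p, was close to absent. It had 6 reads with the empty vector, 2 with shRNA, 1 with shRNA_2bp and 0 of 5736533 with shRNA_5bp (a count of 0 allows up to 0.523 CPM taken as 3 counts of the total, and 0.643 CPM as the upper end of a two-sided exact Poisson 95% interval), and its highest count in any library was 3. The 3 tests of its ratio to miR-21a-5p rest on the 0.5 added to each count and gave exact p of 0.343 with shRNA, 0.657 with shRNA_2bp and 0.743 with shRNA_5bp.

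Both arms of miR-22 rose with shRNA_2bp, and the scarcer 5p arm rose further. MiR-22-5p stood at 92.6, 96, 96.5 and 96.1 CPM with the empty vector and at 94.3, 97.5, 99 and 98.4 CPM with shRNA. It stood at 205, 207, 235 and 215 CPM with shRNA_2bp and at 139, 124, 120 and 122 CPM with shRNA_5bp. The groups with mutated hairpins lay apart from the empty vector and from each other, while shRNA overlapped the empty vector. It rose by 1.17 ± 0.08 with shRNA_2bp (adjusted p = 6.9e-13) and by 0.40 ± 0.09 with shRNA_5bp (adjusted p = 0.000263), the latter being 0.17 (adjusted p = 0.32) with no filter on low counts. With shRNA the difference was 0.03 (interval -0.15 to 0.21, adjusted p = 0.824).

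MiR-22-3p, the abundant arm, stood at 1110, 1207, 1068 and 1101 CPM with the empty vector and at 1141, 1104, 1207 and 1197 CPM with shRNA. It stood at 1656, 1783, 1808 and 1618 CPM with shRNA_2bp and at 1175, 1088, 1262 and 1152 CPM with shRNA_5bp. Only the shRNA_2bp libraries lay clear of the empty vector. The rise was 0.61 ± 0.06 with shRNA_2bp (adjusted p = 3.83e-10). The differences were 0.05 (interval -0.08 to 0.18, adjusted p = 0.552) with shRNA and 0.06 (interval -0.07 to 0.19, adjusted p = 0.42) with shRNA_5bp. Both passed when libraries were scaled by their totals alone, at 0.19 (adjusted p = 0.0116) and 0.30 (adjusted p = 0.000137), under which the median over the 483 tested miRNAs also went up, to 0.18 from 0.04 and to 0.30 from 0.06.

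**Figure D2:**
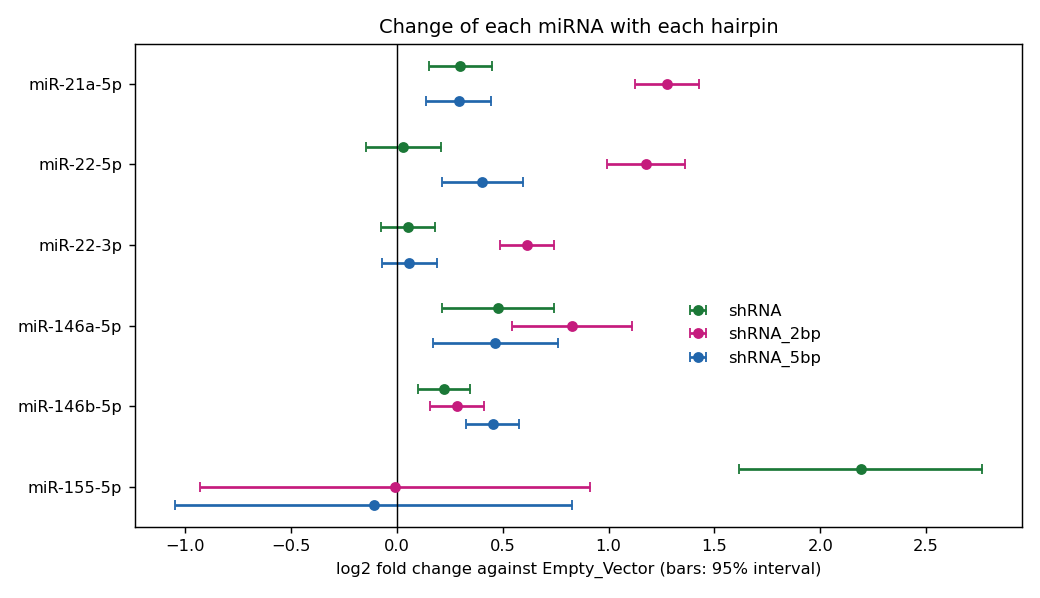
Log2 fold change of the 6 tested miRNAs with each hairpin against the empty vector (horizontal axis), with 95% intervals from the edgeR fit. MiR-155-5p lies at 2.19 with shRNA and near 0 with both mutated hairpins, while miR-21a-5p and miR-22-5p lie above 1 with shRNA_2bp alone.

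The arms of miR-22 come from 1 precursor, and the ratio of their counts, like that of any counts within a library, does not depend on scaling. With the empty vector there were 11.8 ± 0.665 reads of miR-22-3p per read of miR-22-5p, and with shRNA 12 ± 0.436. With shRNA_2bp there were 7.98 ± 0.478 and with shRNA_5bp 9.28 ± 0.909, and neither of these overlapped the empty vector. On the log2 scale the ratio of the 5p arm to the 3p arm was higher by 0.56 with shRNA_2bp and by 0.35 with shRNA_5bp. For each the two-sided exact permutation p was 0.0286, the smallest that 4 against 4 libraries allow. The adjusted p over the 9 ratio tests was 0.0857, so neither passed the correction. Most of the 9 tests would have had to reach 0.0286 for any to pass, so the adjusted p cannot decide whether the ratio shifted. With shRNA the difference was -0.02 (exact p = 0.686, adjusted p = 0.771). ShRNA_2bp lay above shRNA by 0.58 and shRNA_5bp above shRNA by 0.37, both without overlap and not tested.

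**Figure D3:**
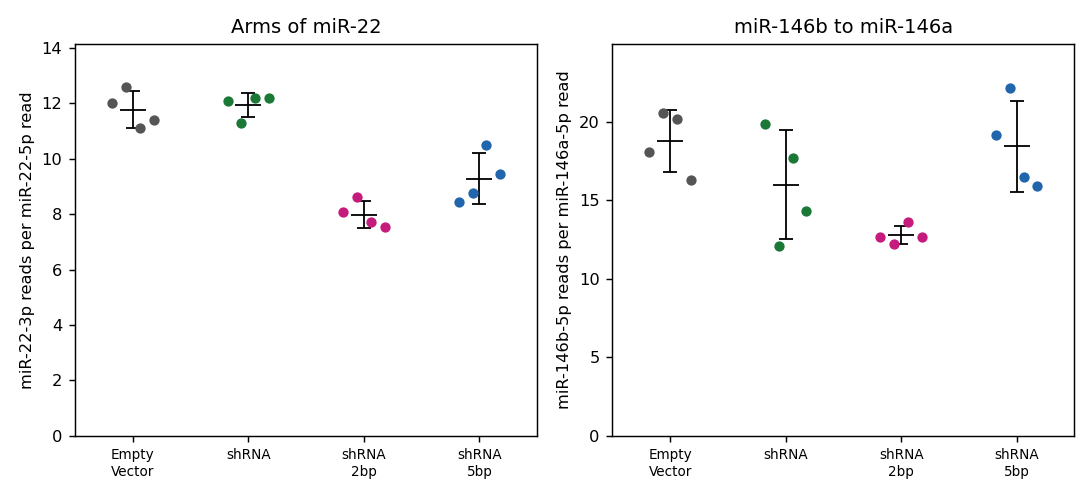
Reads of miR-22-3p per read of miR-22-5p (left) and of miR-146b-5p per read of miR-146a-5p (right) in each library, with mean and SD (n = 4), axes from 0. The left ratio is lower in all 8 libraries with a mutated hairpin than in the other 8, and the right ratio is lower with shRNA_2bp than with the empty vector.

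MiR-146a-5p and miR-146b-5p, the feedback inhibitors of NF-kB signalling, rose with every hairpin. MiR-146a-5p stood at 56.3, 48.9, 47.1 and 58 CPM with the empty vector and at 62.2, 93.2, 62.7 and 76.9 CPM with shRNA. It stood at 94, 102, 86.6 and 90.8 CPM with shRNA_2bp and at 71.1, 64.2, 81.7 and 77.8 CPM with shRNA_5bp. All 12 hairpin libraries lay above the empty vector, and the shRNA group was the most spread, with a coefficient of variation of 19.8%. The rises were 0.48 ± 0.12 with shRNA (adjusted p = 0.00264), 0.82 ± 0.13 with shRNA_2bp (adjusted p = 2.75e-06) and 0.46 ± 0.14 with shRNA_5bp (adjusted p = 0.00429). The rise with shRNA_5bp lost its call without empty-vector library 2 (0.33, adjusted p = 0.0583), without shRNA_5bp library 4 (0.34, adjusted p = 0.0606) or with no filter on low counts (0.23, adjusted p = 0.253).

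MiR-146b-5p, the commoner of the 2, stood at 1018, 1007, 951 and 946 CPM with the empty vector and at 1237, 1129, 1107 and 1100 CPM with shRNA. It stood at 1196, 1243, 1180 and 1152 CPM with shRNA_2bp and at 1363, 1423, 1344 and 1234 CPM with shRNA_5bp. Here too every hairpin library lay above every empty-vector library. The rises were small, at 0.22 ± 0.06 with shRNA (adjusted p = 0.00293), 0.28 ± 0.06 with shRNA_2bp (adjusted p = 0.00011) and 0.45 ± 0.06 with shRNA_5bp (adjusted p = 1.04e-07). With no filter on low counts they were 0.20 (adjusted p = 0.0538), 0.18 (adjusted p = 0.0564) and 0.22 (adjusted p = 0.014), and with scaling by library totals alone the last was 0.69.

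With the 2 names added together, a choice made after seeing the data because their reads may be exchanged, miR-146 stood at 1033 ± 37.9 CPM with the empty vector. It stood at 1217 ± 59.5 CPM with shRNA, 1286 ± 43.6 CPM with shRNA_2bp and 1415 ± 73.6 CPM with shRNA_5bp. The sum rose by 0.24 ± 0.06 (adjusted p = 0.00114), 0.32 ± 0.06 (adjusted p = 1.7e-05) and 0.45 ± 0.06 (adjusted p = 5.89e-08) in that order. The share of miR-146a-5p was taken from reads pooled over the 4 libraries of a group, in which deep libraries weigh more. It was 5.17% of the summed reads with the empty vector, 5.93% with shRNA, 7.29% with shRNA_2bp and 5.01% with shRNA_5bp. The mean log2 ratio of miR-146a-5p to miR-146b-5p gives each library equal weight. That ratio was higher with shRNA_2bp than with the empty vector by 0.55, without overlap (exact permutation p = 0.0286, adjusted p = 0.0857). The differences were 0.25 with shRNA (exact p = 0.2) and 0.04 with shRNA_5bp (exact p = 0.771).

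Of the opposite arms, miR-146a-3p had no read in any library. MiR-146b-3p was scarce, with 4 to 27 reads per empty-vector library, 12 to 20 with shRNA, 7 to 12 with shRNA_2bp and 5 to 16 with shRNA_5bp. From 2.35 CPM with the empty vector it rose by 1.35 ± 0.33 with shRNA_2bp (adjusted p = 0.000806) and by 1.27 ± 0.34 with shRNA_5bp (adjusted p = 0.00202). With shRNA its difference was 0.15 (adjusted p = 0.745). On libraries thinned to the shallowest, the inflammation-linked list that holds it, described below, had 5 tested names (6 as reported). Of these 3 rose with shRNA_2bp (4 as reported) and 1 with shRNA_5bp (2 as reported).

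Counted over the set, 4 of the 6 tested members rose and 0 fell with shRNA, where 19.7% of all 483 miRNAs rose and 15.1% fell. With shRNA_2bp 5 rose and 0 fell, against 33.3% and 32.3% of all. With shRNA_5bp 4 rose and 0 fell, against 31.5% and 26.7%. With shRNA the 6 had a median log2 fold change of 0.26 beside 0.04 for all 483. The pair of medians was 0.72 and 0.01 with shRNA_2bp, and 0.35 and 0.06 with shRNA_5bp. The risen members were in each comparison the ones whose libraries did not overlap, at 4, 5 and 4, where 18.2%, 29.8% and 26.9% of all miRNAs lay wholly above the empty vector. The 7 names were chosen with results known, and these counts are given as a description.

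**Figure D4:**
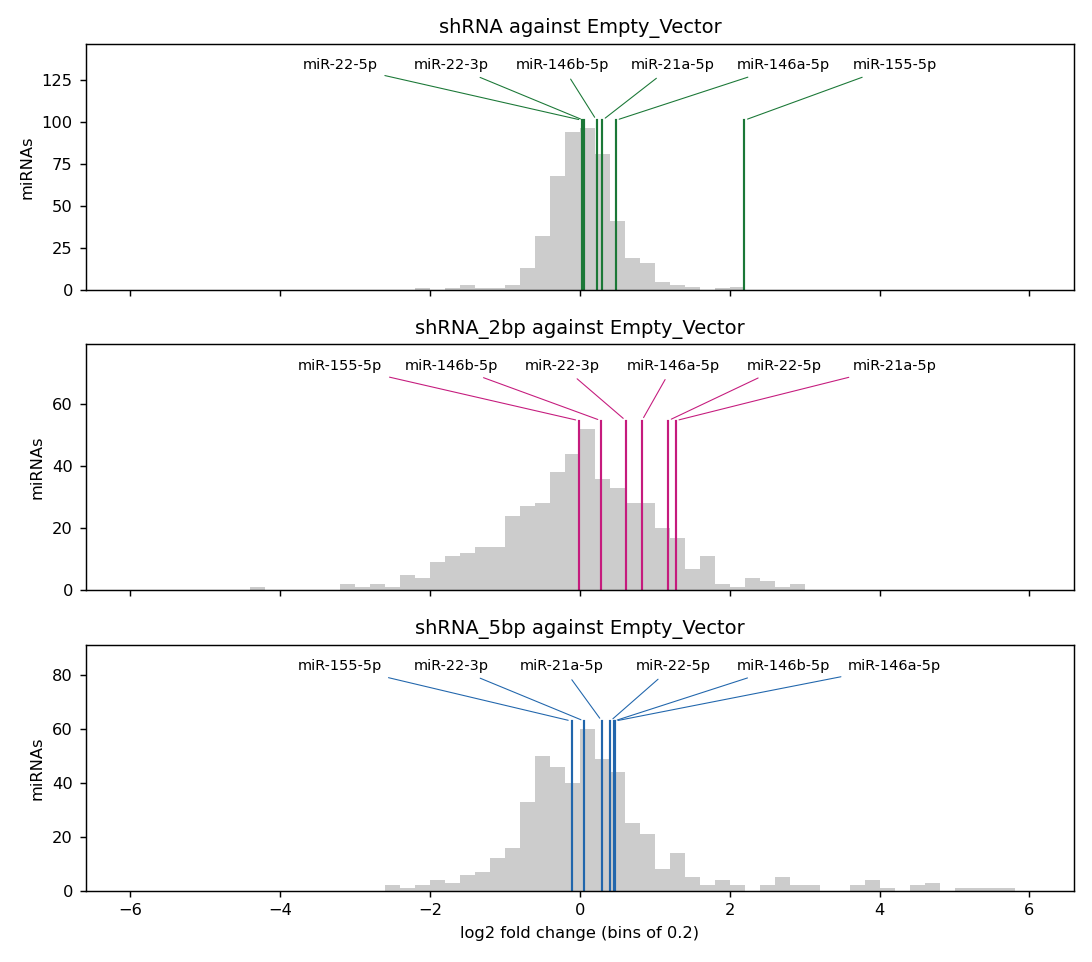
Number of miRNAs (vertical axis) by log2 fold change in bins of 0.2 for all 483 tested miRNAs (grey) in each comparison with the empty vector, with lines at the 6 members. MiR-155-5p stands at the right edge of the shRNA distribution at 2.19, while with shRNA_2bp and shRNA_5bp the members lie inside the range of the other miRNAs.

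By absolute log2 fold change with shRNA_2bp, miR-21a-5p ranked 103 and miR-22-5p ranked 114 of 483. With shRNA_5bp the highest rank was that of miR-146a-5p, 256.

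Between hairpins, 4 of the 6 were higher and 1 lower with shRNA_2bp than with shRNA, where 31.1% of all miRNAs were higher and 33.5% lower. Both arms of miR-22 were higher, miR-22-5p 2.21-fold (adjusted p = 9.19e-13) and miR-22-3p 1.48-fold (adjusted p = 2.13e-09). MiR-146a-5p was higher by 0.35 ± 0.13 (adjusted p = 0.0184), a call lost without shRNA library 1 (0.25, adjusted p = 0.103) or 3 (0.25, adjusted p = 0.108) or shRNA_2bp library 2 (0.31, adjusted p = 0.064). It was also lost with no filter on low counts (0.27, adjusted p = 0.121) and on thinned libraries (0.33, adjusted p = 0.083). MiR-146b-5p differed by 0.06 (interval -0.06 to 0.19, adjusted p = 0.368).

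With shRNA_5bp against shRNA, 2 were higher and 1 lower, where 28.4% of all were higher and 24.6% lower. MiR-22-5p was higher by 0.37 ± 0.09 (adjusted p = 0.000671) and miR-146b-5p by 0.23 ± 0.06 (adjusted p = 0.00134). The first was 0.21 (adjusted p = 0.0695), 0.22 (adjusted p = 0.0605) and 0.23 (adjusted p = 0.0578) without shRNA library 1, 2 and 3, and 0.17 (adjusted p = 0.336) with no filter on low counts. The second was 0.06 to 0.12, no longer called, without any of 6 libraries: numbers 2 and 3 of the empty vector, 1, 2 and 3 of shRNA, and 4 of shRNA_5bp. With no filter it was 0.02 (adjusted p = 0.912). MiR-22-3p differed by 0.01 (adjusted p = 0.948). Without number 2 or 3 of the empty vector, or 1 or 2 of shRNA, it was lower by -0.14 to -0.18, past the threshold. No direction is therefore given for it. Without any of the 6 libraries named above, the median over all tested miRNAs also moved, to between -0.148 and -0.158 from -0.002. With no filter that median was -0.28.

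With shRNA_5bp against shRNA_2bp, 4 were lower and 1 higher, where 22.8% of all were lower and 36.9% higher. MiR-22-5p was lower by -0.77 ± 0.09 (adjusted p = 1.7e-08) and miR-22-3p by -0.56 ± 0.06 (adjusted p = 4.96e-09). MiR-146a-5p was lower by -0.36 ± 0.14 (adjusted p = 0.0282), a call lost with scaling by library totals alone (-0.30, adjusted p = 0.0884), on thinned libraries (-0.35, adjusted p = 0.0601), without shRNA_2bp library 2 (adjusted p = 0.079) or shRNA_5bp library 1 (adjusted p = 0.0535) or 2 (adjusted p = 0.164). MiR-146b-5p was higher by 0.17 ± 0.06 (adjusted p = 0.0151), but the difference was 0.01 (adjusted p = 0.86) when the 8 libraries were fitted alone and 0.10 (adjusted p = 0.136) in DESeq2. With relative log expression scaling it was 0.10 (adjusted p = 0.145) and with no filter 0.04 (adjusted p = 0.878). It was also 0.04 to 0.07, past no threshold, when any of the same 6 libraries was left out. The median over all tested miRNAs was 0.16 as reported, 0.01 to 0.04 without any of those 6 libraries, and 0.01 when the 8 libraries were fitted alone.

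The order of the groups therefore differed from member to member. For miR-21a-5p shRNA_2bp stood highest, shRNA and shRNA_5bp overlapped, and the empty vector stood lowest. For miR-22-5p the order was shRNA_2bp, then shRNA_5bp, then shRNA and the empty vector, which overlapped. For miR-22-3p only shRNA_2bp stood apart. For miR-155-5p only shRNA stood apart.

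The miRNAs of most similar pattern were sought among 359 others of at least 10 CPM, as the smallest root mean square difference of log2 CPM over 16 libraries, each centred on its empty-vector mean. These libraries share their depths and groups, and the measure is a description. The nearest to miR-21a-5p was miR-22-5p (0.189), followed by miR-30c-2-3p (0.211) and miR-335-5p (0.228), against a median of 0.821 over all candidates. MiR-22-5p lay nearest to miR-30e-3p (0.143), miR-25-3p (0.162) and miR-381-3p (0.172). MiR-22-3p lay nearest to miR-9-3p (0.126), miR-151-5p (0.14) and miR-9-5p (0.142), of which the arms of miR-9 are abundant in neural cells. MiR-146a-5p lay nearest to miR-30c-5p (0.194), miR-30a-5p (0.202) and miR-30a-3p (0.217), and miR-146b-5p to miR-181d-5p (0.134), miR-26b-5p (0.156) and let-7g-5p (0.159). MiR-155-5p was below 10 CPM and was left out. The only member among the nearest of another was miR-22-5p.

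Names linked to the same cells or pathways were read from lists, described by counts alone. Each list is to be read beside the share of all 483 miRNAs. That was 19.7% risen and 15.1% fallen with shRNA, 33.3% and 32.3% with shRNA_2bp, and 31.5% and 26.7% with shRNA_5bp. Of 6 tested inflammation-linked names outside the set, 2 rose and 0 fell with shRNA, 4 rose and 1 fell with shRNA_2bp, and 2 rose and 1 fell with shRNA_5bp. Among them is miR-146b-3p, the opposite arm of the member miR-146b-5p, which is counted as risen with both mutated hairpins. MiR-181a-5p, known for tuning T cell receptor signalling, rose with each, by 0.75 ± 0.07, 1.08 ± 0.07 and 0.97 ± 0.07 (adjusted p = 2.84e-10, 1.66e-14 and 3.53e-13). MiR-187-3p rose with shRNA (0.63 ± 0.12, adjusted p = 0.000267) and fell with shRNA_2bp (-1.06 ± 0.13, adjusted p = 4.08e-07). With no filter on low counts 9 names of the list were tested, of which 3 rose and 4 fell with shRNA_5bp.

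Of 9 tested astroglia-leaning names, 4 rose and 1 fell with shRNA, 2 rose and 2 fell with shRNA_2bp, and 5 rose and 0 fell with shRNA_5bp. These counts changed with the scaling, to 5 and 0, 5 and 1, and 8 and 0 with library totals alone, and with single libraries left out, when 1 to 4 rose with shRNA_2bp. MiR-23a-3p rose by 1.31 ± 0.14 with shRNA_5bp (adjusted p = 4.32e-09), and miR-24-3p fell with shRNA_2bp (-0.70 ± 0.06, adjusted p = 6.33e-12). The list's summed level was 3750 to 4190 CPM with the empty vector, 4060 to 4980 CPM with shRNA, 3870 to 4140 CPM with shRNA_2bp and 5340 to 5870 CPM with shRNA_5bp, all unscaled. The part of these names in the changes of miR-21a-5p was not tested.

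Of 7 tested vascular and fibroblast names, 0 rose with shRNA and 5 with each mutated hairpin. Of all 483 miRNAs 19.7% rose with shRNA, 33.3% with shRNA_2bp and 31.5% with shRNA_5bp. The list had medians of 1.40 with shRNA_2bp and 1.22 with shRNA_5bp. Over all alternatives 3 to 6 rose with each of these. MiR-10a-5p rose by 1.78 ± 0.18 with shRNA_2bp (adjusted p = 8.9e-10) and endothelial miR-126a-3p by 0.58 ± 0.06 with shRNA_5bp (adjusted p = 5.72e-09). The summed level, unscaled, was 658 to 761 CPM with the empty vector, 665 to 808 CPM with shRNA, 1240 to 1460 CPM with shRNA_2bp and 1280 to 1430 CPM with shRNA_5bp. Most of the reads in this sum were miR-126a-3p, 7402 of 8487 with shRNA_2bp and 6784 of 7499 with shRNA_5bp. The other names did not move as one between these groups, which held 6320712 and 5736533 reads. MiR-10a-5p had 242 and 77 reads in that order, miR-143-3p 594 and 351, and miR-199a-3p 128 and 158. The part of these names in the changes of miR-21a-5p and miR-22 was not tested. Of the 4 oligodendrocyte names, miR-219a-5p had 7 reads over all libraries, and of 2 tested ones 1 rose with shRNA_2bp and 0 with the other hairpins. The erythroid names miR-486a-5p and miR-486b-5p, listed with identical counts, rose by 0.19 with shRNA_2bp alone (adjusted p = 0.0329), though 0 to 2 of them did when 1 library was left out. MiR-451a had 5, 13, 5 and 6 reads in the groups in the order named above. Of the 10 neuronal names 4 rose and 2 fell with shRNA, 5 rose and 4 fell with shRNA_2bp, and 6 rose and 2 fell with shRNA_5bp.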

How the data were processed

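The authors deposited raw read counts per mature miRNA name for 16 libraries, made from 100 ng of total RNA with 15 PCR cycles, per the labels' protocols. Per the submitters' processing notes the build was GRCm38.p6, and the tools named, without their order, were Bowtie 1.1.1, edgeR, bcl2fastq 2.20.0.422, cutadapt 1.15 and Trim Galore 0.6.0. The assignment of reads shared by names is not given in the sources used here. Without molecular identifiers, PCR copies count as reads.

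From these counts, names passing edgeR's own filter (483 of 1978) received TMM (trimmed mean of M values) factors and were fitted with 1 coefficient per group and robust quasi-likelihood in edgeR 4.0.16 (limma 3.58.1, R 4.3.3). Intervals use 12 degrees of freedom, and SE is the log2 fold change over the root of F. Ratios add 0.5 to each count. Alternatives were library-size and relative log expression scaling, no filter, DESeq2 1.42.0, fits of 2 groups, a replicate block, the miR-146 names summed (chosen after seeing the data), thinning to 831859 reads, and leaving out each library. The fit was first tested on simulated data.

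The members and lists were chosen with earlier results of these data known. Named are the members, their opposite arms, names of the same seed, the 3 nearest patterns of members at 10 CPM or more, and up to 3 called names per list, of which examples are printed. Replicate numbers are shared by the groups. Deviations of same-numbered libraries from their group means correlated at 0.111 to 0.282 for shRNA and the empty vector and at 0.166 to 0.198 for shRNA_2bp and shRNA, each over 360 miRNAs and above the threshold of 0.1, so the numbers were taken as pairing there. In the other 4 comparisons the lowest correlation was under 0.1, at 0.094 for shRNA_2bp and the empty vector. The reported fit and the exact ratio tests did not use the pairing, and the replicate block did.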

Additional observations from a re-analysis of the deposited data

Results flagged for a closer look

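In 6 groups of 4 libraries, 1 library stood far from the other 3 by Dixon's gap test at the 95% level. Chance alone marks about 1 in 20 groups, and 28 member groups and 12 ratio groups were looked at. MiR-155-5p was 5.99 CPM in shRNA_2bp library 1 against 2.13 to 2.46 CPM in the others, on counts of 10 against 3 to 5. MiR-21a-5p was 1006 CPM in shRNA_5bp library 3 against 862 to 886 CPM. MiR-22-5p was 92.6 CPM in empty-vector library 1 against 96 to 96.5 CPM, a gap of a few CPM in a tight group. MiR-21a-3p was 0.312 CPM in shRNA library 4 (2 reads) and 0.599 CPM in shRNA_2bp library 1 (1 read), where the other 3 libraries of each group had none. The log2 ratio of miR-22-5p to miR-22-3p was -3.50 in shRNA library 2 against -3.61 to -3.60 in the others.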

How the results depend on the processing

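Depth limits miR-155-5p, at 3 to 10 reads per library with a mutated hairpin. The number of members called was 1 with no filter on low counts for shRNA_5bp against the empty vector (4 as reported), where the median of all miRNAs was -0.28. It was 3 for shRNA_2bp against shRNA on thinned libraries (5 as reported), where miR-155-5p could not be tested and miR-146a-5p was not called. For shRNA_5bp against shRNA it was 1 to 3 when 1 library was left out, the 1 without shRNA library 3, and miR-22-3p ranged from -0.1758 to 0.0394 and was -0.20 with no filter. Library-size scaling gave 0.14 for miR-9-5p with shRNA (-0.01 as reported). With no filter miR-9-3p was -0.20, miR-9-5p -0.0275 and let-7g-5p -0.0038 with shRNA_5bp. Library-size scaling moved the share of rises among called miRNAs from 56.5 to 77.2% (shRNA), 50.8 to 61.9% (shRNA_2bp) and 54.1 to 72.7% (shRNA_5bp), and no filter moved both of the last to 38.2%. With the replicate block miR-155-5p rose by 2.12 with shRNA, and no member's call changed in any of the 6 comparisons. The cause of these shifts was not tested.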

Other observations

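The excess rise of the scarcer miR-22 arm was set beside that of other names. Both arms of 119 names were tested, and the scarcer arm had the higher fold change in 66 of them (55.5%) with shRNA, 66 (55.5%) with shRNA_2bp and 63 (52.9%) with shRNA_5bp, with median differences of 0.05, 0.04 and 0.04 on the log2 scale. For miR-22 the scarcer arm exceeded the commoner by -0.02, 0.56 and 0.35 in that order. With shRNA_2bp 26 of the 119 names had a larger difference than miR-22, and with shRNA_5bp 37 did. Both counts include miR-486a and miR-486b, whose values are identical (0.706 with shRNA_2bp and 0.403 with shRNA_5bp). For miR-146b the differences were -0.07, 1.06 and 0.82, and 9 names exceeded it with shRNA_2bp and 13 with shRNA_5bp, on few reads of miR-146b-3p. These are descriptions across names, which are not replicates.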
